A study of Mus musculus with 10 samples.

Results

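Genes that mark microglia at rest in the brain and retina were followed in the retinal pigment epithelium (RPE) preparations of wild-type mice with and without Nrf2 delivered to the RPE. The 9 genes are P2ry12, P2ry13, Gpr34, Cx3cr1, Tmem119, Siglech, Fcrls, Sall1 and Csf1r, chosen by name from a list of homeostatic microglia genes and found by Ensembl identifier, 9 of the 47729 genes in the count table. Compared with the GFP control eye of the same mouse, 8 of the 9 were called higher in the Nrf2 eye (edgeR adjusted p under 0.05), where 3.6% of the 16362 genes tested were, with fitted rises from 9.53-fold for Sall1 to 59.6-fold for P2ry12. This count is a description, since 6 of the 9 had enough counts to be tested only through their Nrf2 eyes. Both ends moved by over 1.5 times without 1 mouse: on the log2 scale, Sall1 went from 3.25 to 2.60 without mouse 5 and P2ry12 from 5.90 to 6.59 without mouse 2. Csf1r was the exception, with a mean level of 196 ± 50.5 CPM (library-scaled counts, defined below; SD, n = 5) without Nrf2 and 142 ± 58.9 CPM with it, a difference that did not pass the test. The rises also varied together over the mice: the rise was smallest in the same mouse for all 8, and largest in the same mouse for 7. The difference of Csf1r was likewise most negative in that first mouse, mouse 2, and highest in the other, mouse 5, and the rises of the macrophage genes Ctss and C1qa were smallest and largest in these mice too. Not all macrophage genes shared this: the log2 difference of Itgam was lowest in mouse 3 (-0.57) and highest in mouse 1 (1.46). Several others had their smallest rise in a mouse other than mouse 2.

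Microglia are the resident macrophages of the brain and retina, and in the undisturbed tissue they hold a ramified form that is marked by a set of surface receptors. Several of these receptors sense nucleotides, lipids and the chemokine fractalkine that neurons release or display, and the set is maintained by transforming growth factor beta signals and by the transcription factor SALL1. Microglia depend for survival on CSF1R, the receptor for the cytokines CSF1 and interleukin 34, but CSF1R is made by other macrophages and monocytes too, whereas P2RY12, TMEM119 and SALL1 are far more restricted. In the eye, microglia normally reside in the inner layers of the retina and can enter the space between photoreceptors and RPE, while macrophages of other kinds live in the choroid behind the RPE.

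The 10 libraries came from 5 wild-type CD1 mice at postnatal day 40, each of which gave a GFP control eye and a contralateral Nrf2 eye. Both eyes received an adeno-associated virus (AAV) in which the RPE-specific human Best1 promoter drives GFP, and only the Nrf2 eye received an additional AAV in which the same promoter drives the human Nrf2 coding sequence. The study's methods give an AAV8 capsid for the Nrf2 vector and a 7M8 capsid for the GFP vector, so Nrf2, the extra vector, its capsid and the larger vector dose cannot be told apart. RNA was taken from the eyecup after the retina was removed and was amplified with a low-input kit. In such bulk RNA, more cells of a type and more RNA per cell cannot be told apart.

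Library totals ranged from 12298404 to 27310638 counts, and CPM are counts scaled to 1000000 per library. Mouse Nfe2l2, the gene of NRF2, ran from 79.3 to 109.6 CPM in control eyes and from 267 to 414 CPM in Nrf2 eyes (log2 fold change 1.97, edgeR adjusted p = 0.000299), and whether reads of the human vector were counted there was not tested. RPE markers were abundant in every library, with a summed level of 12 genes from 23486 to 46468 CPM in control eyes and from 12114 to 30770 CPM in Nrf2 eyes, and 6 of the 12 were called lower and 0 higher, where 2.73% of all genes tested were called lower. The mouse Best1 gene, whose human counterpart gave the promoter, stayed at or under 1.5 CPM in every eye. RNA of rods was uneven, with a summed level from 35.4 CPM in the control eye of mouse 1 to 17121 CPM in the control eye of mouse 2, which also had the highest rod level of the Nrf2 eyes, 6545 CPM.

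To show the genes themselves, promoter windows were read for those members that have one in the RefSeq table used here, which holds windows for 6 of the 9 genes (P2ry12, P2ry13, Cx3cr1, Sall1, Siglech and Fcrls). Each window covers 250 bases before and 50 after an annotated start, and Sall1 has several, making 8 windows of 300 bases. They were searched on both strands for GAGGAA, the core of sites bound by PU.1, the transcription factor that defines macrophages, for the longer PU.1 motif GAGGAAGT, which contains that core, and for TGACNNNGC, the core of the antioxidant response element bound by NRF2. GAGGAA was in 3 of the 8 windows, against 28.3% of all 32817 promoter windows, TGACNNNGC was in 2 of 8 against 12.4%, and GAGGAAGT was in 0 of 8 against 3.2%. The 4 windows with a match are shown because they hold these letters, with the match in capitals, 5′ to 3′ on the strand of the gene, from 250 bases before the start to 30 after it, build GRCm38.p6. P2ry12 (chr3:59262956-59263235, minus strand) has TGACNNNGC with its first base 221 bases before the start. P2ry13 (chr3:59210853-59211132, minus strand) has GAGGAA 48 bases before, and Fcrls (chr3:87263495-87263774, minus strand) has it 144 bases before. Siglech (chr7:55767934-55768213, plus strand) has both on the opposite strand, GAGGAA read as TTCCTC 4 bases before and TGACNNNGC 228 bases before. A match describes letters only, and binding was not measured.
P2ry12: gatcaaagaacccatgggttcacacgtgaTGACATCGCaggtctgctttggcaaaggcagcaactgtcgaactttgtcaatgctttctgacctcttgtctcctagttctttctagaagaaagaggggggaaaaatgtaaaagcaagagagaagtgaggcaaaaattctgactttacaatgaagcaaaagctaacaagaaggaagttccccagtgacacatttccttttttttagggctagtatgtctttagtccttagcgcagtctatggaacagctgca
P2ry13: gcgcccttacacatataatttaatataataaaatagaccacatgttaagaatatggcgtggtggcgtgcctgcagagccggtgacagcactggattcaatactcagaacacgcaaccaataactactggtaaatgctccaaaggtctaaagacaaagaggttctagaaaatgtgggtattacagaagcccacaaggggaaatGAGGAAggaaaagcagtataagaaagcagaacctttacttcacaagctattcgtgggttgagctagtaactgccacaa
Fcrls: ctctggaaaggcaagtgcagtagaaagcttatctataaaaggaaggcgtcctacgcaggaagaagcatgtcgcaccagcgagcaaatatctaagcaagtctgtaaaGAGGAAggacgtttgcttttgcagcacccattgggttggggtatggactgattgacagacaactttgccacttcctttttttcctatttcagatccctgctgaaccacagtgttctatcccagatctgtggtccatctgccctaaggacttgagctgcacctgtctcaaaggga
Siglech: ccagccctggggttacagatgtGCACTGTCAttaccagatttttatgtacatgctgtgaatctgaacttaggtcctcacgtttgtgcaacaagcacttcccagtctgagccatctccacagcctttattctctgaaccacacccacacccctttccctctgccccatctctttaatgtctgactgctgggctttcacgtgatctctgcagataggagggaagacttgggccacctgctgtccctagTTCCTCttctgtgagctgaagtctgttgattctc

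The first group holds the receptors for small signals, and within it P2ry12 had the largest rise of the 9 genes. P2RY12 is a receptor for ADP through which microglial processes grow towards sites of injury. P2ry12 (ENSMUSG00000036353, chr3:59216272-59262871, minus strand, GRCm38) was at 0.459, 1.29, 0.279, 0.299 and 1.28 CPM in the control eyes of mice 1 to 5 and at 46.2, 16.1, 40.1, 30.1 and 98.3 CPM in their Nrf2 eyes. Every Nrf2 eye was thus far above every control eye, and the lowest of them, mouse 2, was the mouse with the highest control level. The mean rose from 0.722 ± 0.521 to 46.2 ± 31.3 CPM (SD, n = 5), a fitted log2 fold change of 5.90 ± 0.57 (SE; edgeR quasi-likelihood test with Benjamini-Hochberg adjustment over all genes tested, adjusted p = 0.00124). It was 6.59 without mouse 2. Each SE given here is that of the mean of 5 differences in log2 CPM, 1 per mouse. Of all genes tested, 6.33% were called in either direction, the Nrf2 eye was the higher one in all 5 mice in 9.42%, and every Nrf2 eye was above every control eye in 3.87%. All 8 rising genes met each of these criteria.

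P2ry13, which encodes a second ADP receptor and lies beside P2ry12 on chromosome 3 (ENSMUSG00000036362, chr3:59207892-59210882, minus strand), was almost without counts in control eyes. Its control levels were 0.408, 0.37, 0, 0.478 and 0.146 CPM, where the 0 of mouse 3 allows up to 0.209 CPM (3 counts of that library, for counting error only). The Nrf2 eyes held 14.7, 4.31, 8.8, 11.6 and 29.7 CPM, with no overlap between the groups. P2ry13 rose by 5.48 ± 0.68 on the log2 scale (adjusted p = 0.00416). Of its neighbours, P2ry14, for the UDP-glucose receptor, did not pass the test, with a log2 fold change of 0.14 (adjusted p = 0.951). Gpr171 was too low to be tested. Med12l, the gene on the opposite strand that spans the cluster and shares 9 exonic bases with P2ry12 and 0 with P2ry13, was at 11.2 CPM in control and 9.56 CPM in Nrf2 eyes (-0.18, adjusted p = 0.930).

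Gpr34 encodes a receptor for lysophosphatidylserine (ENSMUSG00000040229, chrX:13632089-13640858, plus strand). Its RNA was at 0.459, 0.555, 0.279, 0.538 and 0.0366 CPM in control eyes and at 8.29, 5.69, 9.36, 6.99 and 28.4 CPM in Nrf2 eyes. The Nrf2 eye of mouse 5 stood at the top and its control eye, with 1 count, at the bottom, so this mouse had the widest gap. The fitted log2 fold change was 4.74 ± 0.82 (adjusted p = 0.0117), the largest SE of the 9 genes. Without mouse 5 it was 4.01, and with rod RNA as a covariate 5.34, both past the threshold. Cask, which spans Gpr34 on the opposite strand without sharing exonic bases, differed by 0.02 (adjusted p = 0.964).

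Cx3cr1, the fractalkine receptor through which neurons restrain microglia (ENSMUSG00000052336, chr9:119901616-120069879, minus strand), was one of the 3 genes with enough counts in control eyes alone to enter the test. It was at 3.32, 2.09, 1.19, 2.27 and 1.46 CPM in control eyes and at 38.9, 13.6, 25.1, 26.5 and 69.2 CPM in Nrf2 eyes. These groups did not overlap either, the lowest Nrf2 eye being that of mouse 2. Cx3cr1 rose by 3.92 ± 0.47 on the log2 scale (adjusted p = 0.00229), 15.2-fold. The tested genes whose spans overlap it did not pass, with Wdr48 at -0.06 (adjusted p = 0.812), Gorasp1 at -0.06 (adjusted p = 0.855) and Csrnp1 at 0.12 (adjusted p = 0.875), none of which shares an exonic base with Cx3cr1.

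**Figure D1:**
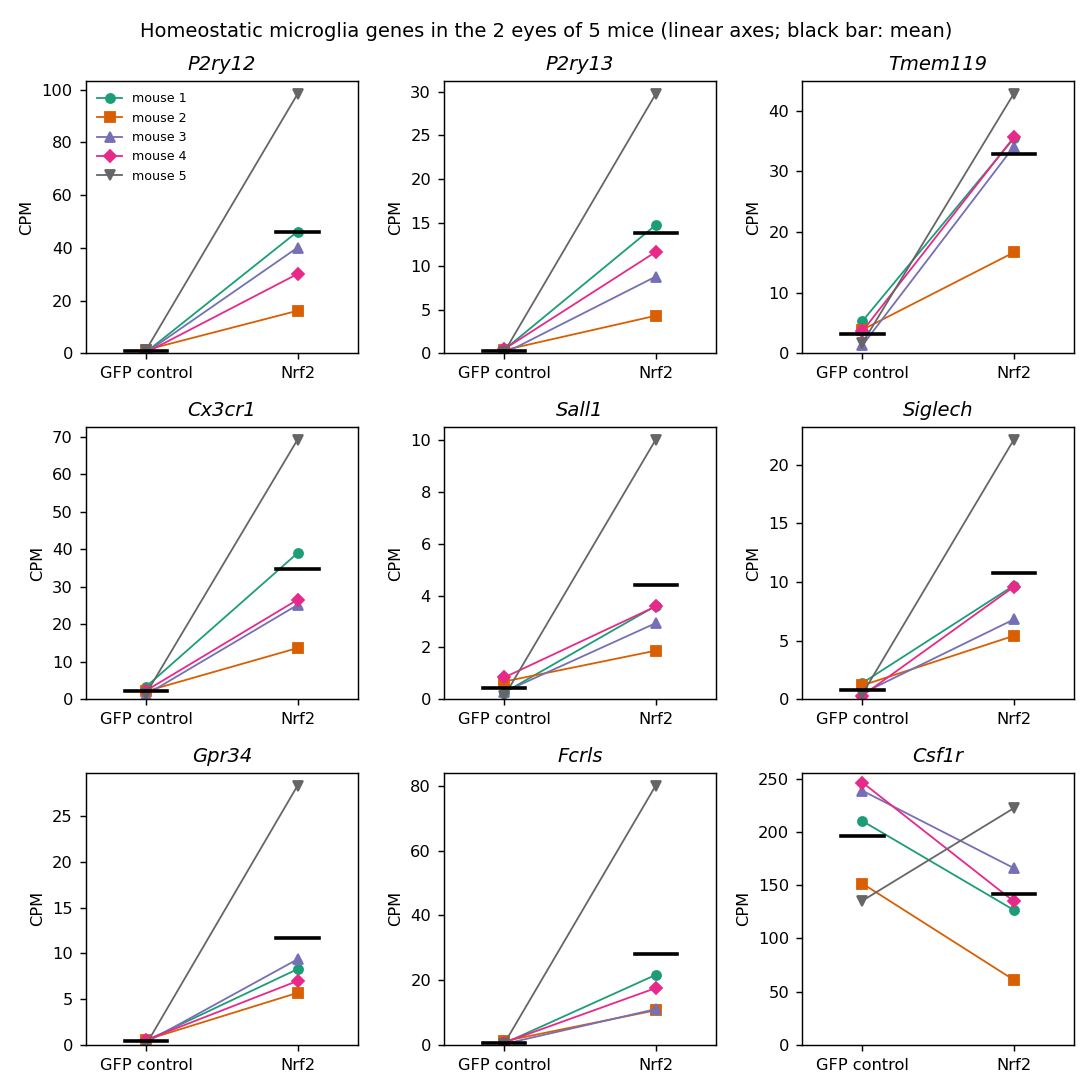
Level of each of the 9 genes in CPM on linear axes that start at 0, with a line joining the GFP control eye to the Nrf2 eye of each of 5 mice and a black bar at the group mean. All lines rise in 8 panels, while in the Csf1r panel 4 of 5 lines fall and only that of mouse 5 rises.

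The second group holds other molecules of the cell surface. Tmem119 encodes a transmembrane protein used to tell microglia from other macrophages (ENSMUSG00000054675, chr5:113793729-113800516, minus strand). It had the highest control level of the 8 rising genes, 5.30, 3.88, 1.33, 3.64 and 1.68 CPM, and reached 35.4, 16.6, 34.1, 35.6 and 42.8 CPM in Nrf2 eyes. Apart from the lower eye of mouse 2, its Nrf2 eyes lay close together. Tmem119 rose by 3.43 ± 0.50 on the log2 scale, 10.8-fold (adjusted p = 0.00434), and it was the other rising gene with enough control counts to be tested on those alone.

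Siglech, a sialic acid-binding lectin gene also used by plasmacytoid dendritic cells (ENSMUSG00000051504, chr7:55768178-55778925, plus strand), was at 1.38, 1.17, 0.489, 0.299 and 0.439 CPM in control eyes. In Nrf2 eyes it was at 9.70, 5.41, 6.81, 9.59 and 22.2 CPM, all above the controls. The log2 fold change was 3.78 ± 0.59 (adjusted p = 0.00822). With the rod RNA of each library as a covariate it was 3.58 and no longer passed (adjusted p = 0.0632). Of 10 dendritic cell genes, 5 were tested and 0 passed in either direction at an adjusted p under 0.05, where 6.33% of all genes tested did. With 5 genes a count of 0 cannot be told from that share. All 5 log2 fold changes were above 0, with a median of 0.76.

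Fcrls, an Fc receptor-like scavenger receptor gene of mouse microglia (ENSMUSG00000015852, chr3:87250758-87263738, minus strand), varied most among the Nrf2 eyes on the log2 scale. Control eyes held 0.510, 1.17, 0.279, 0.717 and 0.403 CPM, and Nrf2 eyes 21.6, 10.7, 11.1, 17.6 and 80.1 CPM. The eye of mouse 5 was far above the other Nrf2 eyes, which were themselves all above the controls. Fcrls rose by 5.18 ± 0.68 on the log2 scale, 36.1-fold (adjusted p = 0.00377). The log2 value was 4.53 without mouse 5 and 5.84 without mouse 2, and it passed in both cases.

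Sall1 encodes the zinc-finger transcription factor that upholds microglial identity (ENSMUSG00000031665, chr8:89027235-89044162, minus strand), and of the 9 genes it had the lowest mean level in Nrf2 eyes and, per kilobase, in both groups. It was at 0.255, 0.678, 0.279, 0.836 and 0.110 CPM in control eyes, between 3 and 14 counts, and at 3.60, 1.87, 2.93, 3.58 and 10.02 CPM in Nrf2 eyes. The groups did not overlap, and the rise was 3.25 ± 0.73 on the log2 scale (adjusted p = 0.0395). Without mouse 1, 2, 3 or 4 the adjusted p was 0.0965, 0.0503, 0.109 and 0.0805 in turn, with values of 3.12, 3.82, 3.28 and 3.69. Without mouse 5 the value was 2.60 and passed (adjusted p = 0.0485). With rod RNA as a covariate the value was 3.99 and the adjusted p 0.0729. Sall1 was also the gene that lost its call most often among the alternatives, with 8 of 13 leaving its call in place. These 8 include a prior count of 2, which cannot change a call.

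**Figure D2:**
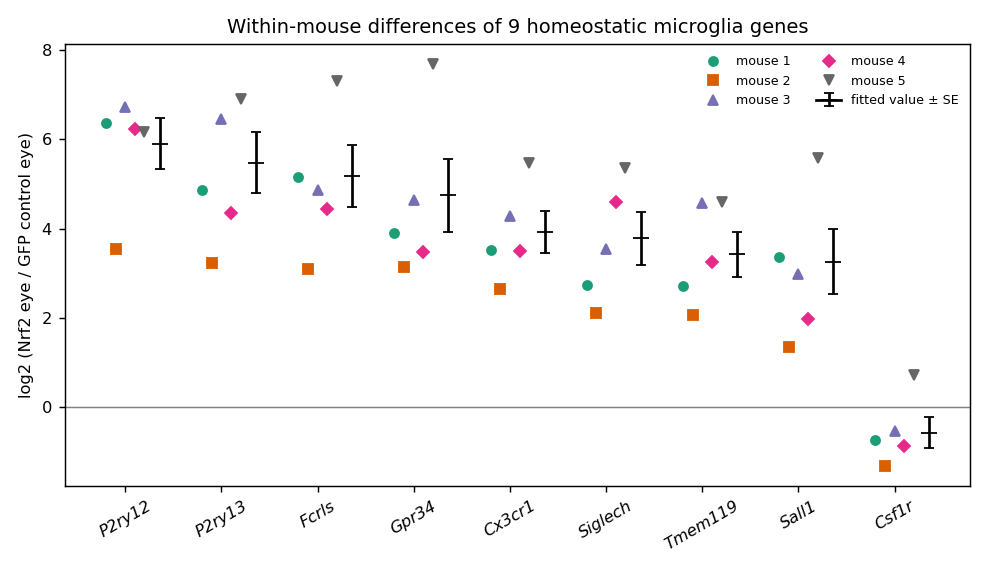
Within-mouse difference of log2 CPM between the Nrf2 and the GFP control eye (vertical axis) for the 9 genes (horizontal axis), with a colored symbol per mouse and a black mark for the fitted log2 fold change with its SE. The 8 rising genes have all 5 symbols above 0, and Csf1r has 4 below 0 and 1 above.

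Csf1r, the receptor for the growth factors CSF1 and interleukin 34 (ENSMUSG00000024621, chr18:61100598-61132149, plus strand), was abundant where the other genes were nearly absent. Whether its RNA came from macrophages or from other cells of the eyecup was not tested. Its control eyes held 210.2, 152, 239, 246 and 135 CPM, and its Nrf2 eyes 127, 61.0, 166, 135 and 222 CPM. The groups overlapped, the Nrf2 eye was lower in 4 of 5 mice, and in mouse 5 it was higher. The fitted log2 fold change of -0.57 ± 0.34 did not pass the test (adjusted p = 0.301). Mouse 5 decided this: without it the value was -0.85 and passed (adjusted p = 0.0387). Hmgxb3, which lies on the opposite strand and shares 873 exonic bases with Csf1r, was at 40.1 CPM in control and 36.9 CPM in Nrf2 eyes (-0.14, adjusted p = 0.504), and since the strand setting is not given in the sources used here, reads of the shared bases cannot be assigned.

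The distance between Csf1r and the other genes was present in each mouse. For the 8 genes and 5 mice, the within-mouse log2 difference exceeded that of Csf1r in 40 of 40 cases, by 2.65 for the closest, a Sall1 value, to 7.24 for the widest, a P2ry12 value. Scaled per kilobase of exon, which allows levels of different genes to be compared, control eyes had mean levels of 34.0 CPM per kb for Csf1r, 1.37 for Tmem119, 0.459 for Cx3cr1 and 0.284 for P2ry12. The other 5 genes were between 0.0820 (Sall1) and 0.264 (Fcrls) CPM per kb. Ranked within each Nrf2 eye on the same scale, Csf1r was first in mice 1 to 4, at 21.9, 10.6, 28.8 and 23.3 CPM per kb, and in mouse 5 it was level with P2ry12, at 38.5 and 38.6. P2ry12 and Tmem119 held the next ranks in mice 1 to 4, with Tmem119 the higher of the pair in mice 2 and 4 (7.18 against 6.34, and 15.4 against 11.8) and P2ry12 in mice 1 and 3. Fcrls had rank 3 in mouse 5, at 34.3, and rank 4 or 5 in the others. Siglech and Sall1 were the lowest in all 5 Nrf2 eyes, with Sall1 at 0.355 to 1.90 CPM per kb. The per-kilobase ratio of Csf1r to Cx3cr1 ran from 49.5 to 157 in control eyes and from 2.51 to 5.16 in Nrf2 eyes, so these ranges lay wide apart.

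**Figure D3:**
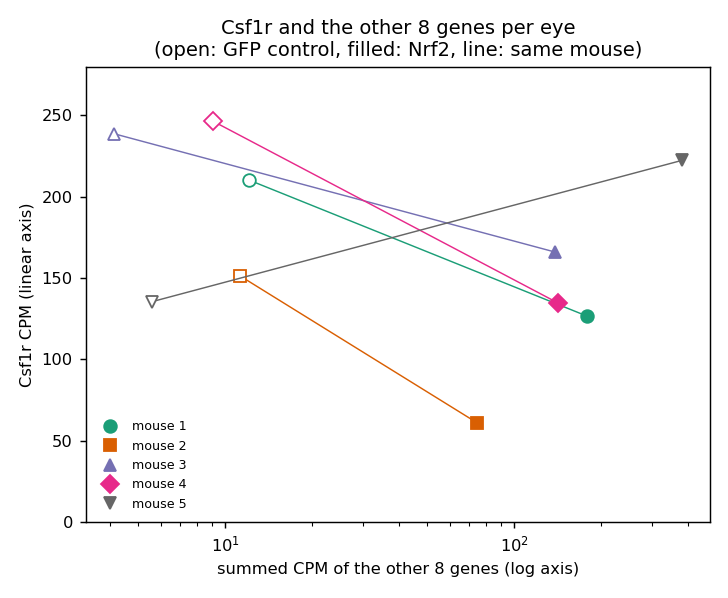
Csf1r level in CPM (vertical, linear axis from 0) against the summed CPM of the other 8 genes (horizontal, log axis), with open symbols for GFP control eyes, filled symbols for Nrf2 eyes and a line per mouse. The sum runs from 4.12 to 12.1 CPM in control and from 74.4 to 381 CPM in Nrf2 eyes, while Csf1r overlaps between the groups.

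The summed level of the 8 rising genes was 12.1, 11.2, 4.12, 9.08 and 5.57 CPM in the control eyes of mice 1 to 5 and 178, 74.4, 138, 142 and 381 CPM in their Nrf2 eyes. That is a ratio of 14.8, 6.63, 33.6, 15.6 and 68.4 within the mice. The makeup of this sum was steadier in Nrf2 eyes than in control eyes for P2ry12, whose share ran from 21.3% to 29.0% in Nrf2 and from 3.29% to 23% in control eyes. Cx3cr1 took 18.2% to 21.8% of the sum in Nrf2 eyes and Sall1 2.02% to 2.63%, whereas Tmem119 ranged from 11.2% to 25.2% and Fcrls from 8% to 21%. In control eyes Tmem119 held 30.3% to 43.9%. These shares are of counts, and in control eyes they rest on few of them.

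Over the 5 Nrf2 eyes, all 8 genes were highest in mouse 5 and lowest in mouse 2, and so was Csf1r. P2ry13, Cx3cr1, Sall1, Siglech and Fcrls had one order of eyes, mouse 5, 1, 4, 3, 2 from high to low. P2ry12, Tmem119 and Gpr34 departed from it only among mice 1, 3 and 4. In the control eyes, 0 of the 8 genes were highest in mouse 5 and 0 were lowest in mouse 2. The eyes of 1 group are too few for a correlation, and the genes share each library, so this order is a description without a test.

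For 7 of the 8 genes, the ratio to the others varied less than the level. Over Nrf2 eyes the SD of log2 CPM was between 0.53 (Tmem119) and 1.18 (Fcrls), but the SD of the log2 ratio of a gene to the mean of the other 7 was 0.13 for Sall1, 0.17 for Cx3cr1, 0.20 for Siglech, 0.27 for P2ry13, 0.28 for P2ry12, 0.36 for Gpr34 and 0.52 for Fcrls. Tmem119 was the exception, with 0.58 for the ratio against 0.53 for the level. In control eyes, where most values rest on few counts, the SD of the ratio was between 0.33 and 1.12, below that of the level in 7 of 8 genes. The ratio of Csf1r to the 8 genes had an SD of 0.43 over Nrf2 eyes and 0.73 over control eyes, where its own level had 0.69 and 0.39. Its ratio to 12 RPE genes had 0.60 over Nrf2 and 0.35 over control eyes. For 20 genes common to macrophages these were 0.55 and 0.46, and for 6 skeletal muscle genes 2.61 and 0.20. Which cells of the eyecup made the Csf1r RNA was not tested.

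**Figure D4:**
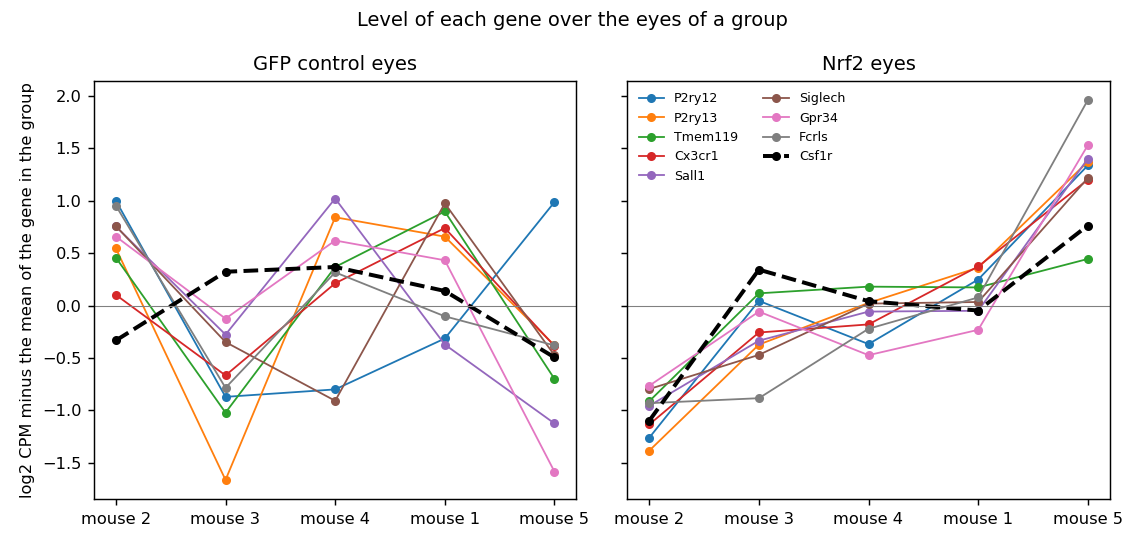
Level of each gene in each eye as log2 CPM minus the mean of that gene in the group (vertical axis), with 1 line per gene over the 5 mice, control eyes in one panel and Nrf2 eyes in the other; Csf1r is the black dashed line. In the Nrf2 panel all 9 lines have their highest point at mouse 5 and their lowest at mouse 2, and in the control panel none of the 8 rising genes does.

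Other material also differed among these eyes. Mouse 2 had the most rod RNA of the Nrf2 eyes. In the Nrf2 eyes of mice 1 to 5 in turn, 4 hemoglobin genes summed to 460, 802, 365, 981 and 2485 CPM and 6 skeletal muscle genes to 4.51, 15.1, 345, 235 and 545 CPM, so the eye of mouse 5 was highest for both, as for the 8 genes. With the muscle RNA of each library as a covariate all 8 genes were still called higher, with rod RNA 6 of 8 were. The 2 lost calls were those of Sall1 and Siglech, whose log2 fold changes with the rod covariate were 3.99 and 3.58, against 3.25 and 3.78 without it. The part of blood RNA in the order of the eyes was not tested.

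A further 18 homeostatic microglia genes had a lower median fold change than these 9. Of the 18, 7 were called higher and 0 lower, beside 3.6% and 2.73% of all genes tested. The count called higher moved with the fit: 3 with rod RNA as a covariate, 3 without mouse 4, and 11 in DESeq2. Their median log2 fold change was 1.19, against -0.01 over all genes tested and 3.92 over the 9 genes. The 3 with the highest counts did not pass: Cst3, a secreted protease inhibitor, had -0.25 (adjusted p = 0.677), Upk1b -0.18 (adjusted p = 0.867) and Sparc, a matrix protein gene, 0.44 (adjusted p = 0.361). Their means in control eyes were 8905, 641 and 509 CPM. The 7 called higher include Selplg, the P-selectin ligand gene, which went from 1.93 ± 0.763 to 24.0 ± 11 CPM (3.58, adjusted p = 0.00257). The genes of both lists were chosen with results of these data known.

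Genes common to all macrophages rose with the microglia genes. Of 20, 18 were called higher and 0 lower, beside 3.6% and 2.73% of all genes tested. The median of the 20 log2 fold changes was 3.93. The summed level of these genes ran from 129 to 201 CPM in control eyes and from 660 to 2774 CPM in Nrf2 eyes. Ctss, a lysosomal protease gene, rose from 12.9 ± 2.98 to 230.7 ± 132 CPM (3.98, adjusted p = 0.000979), and C1qa, of the first complement component, from 4.88 ± 2.23 to 166 ± 107 CPM (4.91, adjusted p = 0.00226). The exceptions were Itgam, which encodes the integrin CD11b, and Ptprc, the pan-leukocyte antigen CD45, the latter named after its values were seen. Like Csf1r, Itgam was already abundant in control eyes, at 93.8 ± 44.1 CPM against 119 ± 51.3 CPM in Nrf2 eyes (0.34, adjusted p = 0.618). Ptprc was at 1.68 ± 0.996 and 6.59 ± 4.22 CPM (1.87, adjusted p = 0.0553).

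The 10 genes whose log2 CPM over all 10 libraries lay nearest to the mean of the 8 rising genes were Fcer1g, Laptm5, Tyrobp, Ctss, Cd300c2, Selplg, Havcr2, C1qa, C1qc and Ly86. The measure is the SD over libraries of the difference from that mean, 0.36 for Fcer1g, 0.46 for Tyrobp and 0.58 for Ly86 on the log2 scale. The 8 genes themselves had values from 0.34 for Cx3cr1 to 1.03 for P2ry12. Fcer1g and Tyrobp, which encode signaling adaptors of immune receptors, rose by 4.03 and 4.80 on the log2 scale (adjusted p = 0.00821 and 0.00361).

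Marker genes of other blood and tissue leukocytes did not pass the test in either direction, where 6.33% of all genes tested did. Few of them were tested, so a count of 0 cannot be told from that share. Of 10 genes of perivascular and choroidal macrophages 7 were tested and 0 called, with a median log2 fold change of 0.79 and 6 of the 7 values above 0. Cbr2, a carbonyl reductase gene, led them with 766 ± 396 CPM in control and 1262 ± 379 CPM in Nrf2 eyes (0.79, adjusted p = 0.141), and Folr2 and Stab1 had 0.74 and -0.04 (adjusted p = 0.200 and 0.972). Of 5 monocyte genes 4 were tested, of 8 neutrophil genes 2 and of 6 lymphocyte genes 1, with 0 called, and the neutrophil genes Ngp and Mmp8 had no count in any library. The summed level of the neutrophil genes ran from 2.09 to 4.34 CPM in control and from 1.38 to 5.65 CPM in Nrf2 eyes. Most of these genes were too low to be tested.

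**Figure D5:**
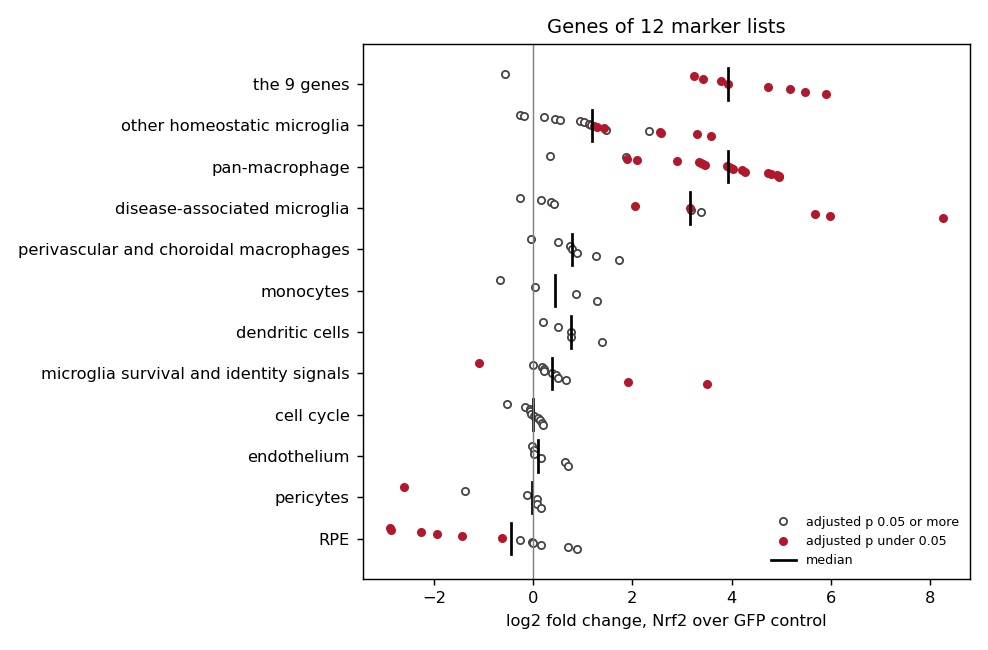
Fitted log2 fold change, Nrf2 over GFP control (horizontal axis), for the tested genes of 12 marker lists (rows), filled where the adjusted p was under 0.05 and open otherwise, with a bar at the median of each list. The 9 genes and the pan-macrophage genes have medians of 3.92 and 3.93, and the perivascular and choroidal macrophage genes 0.79.

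Finally, the signals that keep microglia alive and in their resting state were read from the same libraries. Csf1, one of the ligands of CSF1R, rose from 13.7 ± 6.16 CPM to 49.2 ± 4.25 CPM (1.91 ± 0.26 on the log2 scale, adjusted p = 0.00257), with 43.8 to 54.4 CPM in Nrf2 eyes against 10.8 to 24.7 CPM in control eyes. Il34, the other ligand, had 0.50 (adjusted p = 0.205). Csf1r did not pass the test in the same comparison. Whether Csf1 bears on the level of the 8 genes was not tested. Cx3cl1, the ligand of CX3CR1, had 0.18 (adjusted p = 0.593).

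Transforming growth factor beta is held latent on the cell surface until integrin alpha-v beta-8 frees it, and NRROS tethers it on microglia. Nrros rose from 0.551 ± 0.327 to 5.99 ± 2.23 CPM (3.50, adjusted p = 0.00506), and Itgb8, which encodes the beta-8 chain, fell from 826 ± 233 to 405 ± 178 CPM (-1.09, adjusted p = 0.0167). Tgfb1, Tgfb2 and Tgfb3 had 0.39, 0.22 and 0.46 (adjusted p = 0.367, 0.796 and 0.466). The receptor genes Tgfbr1 and Tgfbr2 had 0.23 and 0.66 (adjusted p = 0.616 and 0.0975), and the mediator Smad3 had -0.01 (adjusted p = 0.974). Of the 11 genes of this list, 2 were called higher and 1 lower, beside 3.6% and 2.73% of all genes tested.

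All 9 genes passed the filter on low counts, but only Tmem119, Cx3cr1 and Csf1r did so on control eyes alone. The other 6 passed through their Nrf2 eyes. With no filter, the same 8 were called higher, where 2.21% of 32000 genes were.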

How the data were processed

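Per the labels, polyA RNA from the eyecup of both eyes of 5 CD1 mice was amplified and sequenced. The authors processed reads with bcbio-nextgen (FastQC, STAR on mm10 with Ensembl transcripts, featureCounts, Salmon 0.8.2 in the submitters' processing notes), and the deposited table holds untransformed read counts per Ensembl gene. Which counter made them and the strand setting are not given in the sources used here.

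Symbols, loci and exon lengths were taken from GENCODE M21 (GRCm38), which held 47310 of the 47729 genes. Of these genes, 15729 had no count. CPM are counts scaled to a library total of 1000000, and 3 counts, the limit that a count of 0 allows, were 0.110 to 0.244 CPM per library. Such limits cover counting error only.

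Nrf2 and control eyes were compared in edgeR 4.0.16 (R 4.3.3; filterByExpr, TMM, quasi-likelihood F test, mouse as blocking factor, Benjamini-Hochberg adjustment over 16362 genes, threshold 0.05), and the script was tested on simulated data. Log2 CPM for spreads and SE used a prior count of 2. Eyes were paired by the animal number in the labels. Checked on the counts, deviations of the eyes of a mouse from the group means correlated across genes with r from 0.19 to 0.71, against -0.42 to 0.28 between mice. These ranges overlap. The control eye of mouse 1 had 0.258 with the Nrf2 eye of mouse 4 against 0.248 with its own. That of mouse 5 had 0.281 with the Nrf2 eye of mouse 1 against 0.203 with its own. The pairing thus rests on the labels. Alternatives were DESeq2 1.42.0, RLE scaling, no filter, thinned counts, no block, a rod or muscle covariate, a prior count of 2 in the fit, and leaving out each mouse.

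The 9 genes and the other lists were chosen with earlier results of these data known. Named were all members, the 10 genes nearest in pattern to the 8, genes overlapping a member, the genes of the signal and receptor cluster lists (1 of which is not reported here), and at most the 3 most abundant of any other list. Outside this rule, Nfe2l2 and Best1 were named for the vector, and Ptprc, Ngp, Mmp8, Lpl, Spp1, Trem2, Cst7 and Ccl3 after their values were seen. Promoters are RefSeq windows of GRCm38.p6.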

Additional observations from a re-analysis of the deposited data

Results flagged for a closer look

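Among the 5 Nrf2 eyes, the Tmem119 level of mouse 2 stood apart from the others. It was 16.6 CPM, where the other Nrf2 eyes held 34.1 to 42.8 CPM, and on the log2 scale its gap to the nearest eye was 0.758 of the whole range of the group, above the critical value of 0.71 for 5 samples. Of 20 groups of 5 eyes checked in this way, 1 was picked out, and chance alone gives about 1 in 20.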

How the results depend on the processing

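The 5 mice set the precision, and 6 of the 9 genes passed the filter on low counts through their Nrf2 eyes. Over the 13 alternatives the fitted log2 fold change stayed between 5.71 and 6.59 for P2ry12, 4.92 and 6.01 for P2ry13, 4.01 and 5.34 for Gpr34, 3.53 and 4.27 for Cx3cr1, 3.13 and 3.81 for Tmem119, 4.53 and 5.84 for Fcrls and 3.33 and 4.27 for Siglech, and the first 6 of these genes kept their call in all of them. Without the replicate block, which pairs the eyes of a mouse, 523 genes were called higher and 232 lower, 687 of them shared with the blocked fit, and it changed no call of the 9 genes. DESeq2 called 1059 genes higher and 749 lower among 19913 with an adjusted p, and 11 of the 18 other homeostatic genes. With rod RNA as a covariate, 284 genes were higher and 137 lower. Called higher there were 3 of the 18 other homeostatic genes, 13 of the 20 pan-macrophage genes and 6 of the 9 genes. Sall1 (3.99, adjusted p = 0.0729) and Siglech (3.58, adjusted p = 0.0632) no longer passed. With muscle RNA as a covariate, chosen after seeing the data, 714 were higher and 544 lower, with 8 of the 9 genes called. Leaving out each mouse in turn gave 392 to 565 genes higher, 173 to 292 lower, 7 to 8 of the 9 genes, 3 to 6 of the 18 other homeostatic genes and 16 to 18 of the 20 pan-macrophage genes. Sall1 ran from 2.60 to 3.82 and passed only without mouse 5, and Csf1r from -0.85 to -0.34, passing only without mouse 5. Fewer samples were fitted there. The cause of the other moves was not tested. RLE scaling, no filter and thinning changed no call of the 9 genes. A prior count of 2 alters only the fitted fold changes and leaves each adjusted p as it was, so it could not change a call.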

Other observations

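Genes that microglia raise when they leave the resting state were also read. Of 11 disease-associated microglia genes, 5 were called higher and 0 lower, beside 3.6% and 2.73% of all genes tested. The median of the 11 log2 fold changes was 3.16. The 3 most abundant did not pass: Apoe had -0.26 (adjusted p = 0.636), Gpnmb 0.37 (adjusted p = 0.758) and Cd9 0.15 (adjusted p = 0.693), at 5397, 980.4 and 329 CPM in control eyes. The 5 called higher, named after their values were seen, were Lpl, Spp1, Trem2, Cst7 and Ccl3. The log2 fold change was above 0 for 10 of the 11 genes. Trem2, a lipid-sensing receptor gene, went from 0.725 ± 0.560 to 42.3 ± 34.9 CPM (5.69 on the log2 scale, adjusted p = 0.00377), and Cst7, a cystatin gene, from 0.124 ± 0.140 to 41.3 ± 38.5 CPM (8.26, adjusted p = 0.0012).

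Of 10 cell cycle genes, 0 were called in either direction, beside 6.33% of all genes tested, with a median log2 fold change of -0.00. Cdk1, Top2a and Mki67 had -0.53, 0.20 and 0.03 (adjusted p = 0.0938, 0.836 and 0.985). Endothelial markers had 0 of 6 called, and pericyte markers had 1 of 6 called, Kcnj8, which fell from 15.7 ± 9.91 to 2.68 ± 1.78 CPM (-2.60, adjusted p = 0.000286). In lists this short, such counts cannot be told from the share over all genes.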
